A study of Mus musculus with 2 samples.

Results

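Periosteal endothelial cells were studied in both single-cell RNA sequencing libraries as the cells with a unique molecular identifier (UMI, a tag that marks 1 captured RNA molecule) for at least 3 of 6 endothelial genes, *Cdh5*, *Pecam1*, *Flt1*, *Ptprb*, *Tie1* and *Adgrl4*, and for fewer than 3 of 6 mural genes, *Myh11*, *Lmod1*, *Pln*, *Notch3*, *Atp1b2* and *Rgs4*. The rule was applied to cells with 500 to 5000 detected genes and under 25% mitochondrial UMIs. The members were chosen by these measured values, so the levels of the rule genes are no finding. The rule selected 283 of 5478 cells in the control library and 188 of 6734 cells in the Piezo1 fl/fl library, 471 of 12212 cells in all. The control cells came from Prx1 Cre; Ai9/+ mice and the others from Prx1 Cre; Ai9/+; Piezo1 fl/fl mice, both 8 weeks old, so that both groups carried the Prx1 Cre driver and the Ai9 red reporter, and the floxed *Piezo1* alleles were carried by the second group only. Prx1 Cre acts in limb mesenchyme, the lineage of bone and its connective tissue, to which endothelial cells are not usually assigned. The cells had been sorted as Prx1 positive after agarose-capped femurs and tibias were digested, with the cells of the last 2 of 3 digestions kept, red cells lysed and the cells thawed before staining. Each genotype was 1 library, the number of mice in each was not given, and so genotype and library cannot be told apart. All intervals below are exact 95% intervals that cover counting error only, and no test between genotypes was possible.

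Endothelial cells line the blood and lymphatic vessels. They are held together by VE-cadherin, sense vascular endothelial growth factors through the receptor tyrosine kinases VEGFR1 to VEGFR3, and are matured by angiopoietins that act on the receptor TIE2. Arteries, capillaries, veins and lymphatic vessels carry endothelial cells of different character, with Notch signalling typical of arteries, fatty acid uptake typical of muscle-type capillaries, adhesion molecules for leukocytes typical of venules and the transcription factor PROX1 typical of lymphatics. In bone, vessels of the periosteum feed the outer cortex, and endothelial cells secrete factors to which bone and blood-forming cells respond.

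The promoters of 3 genes are shown because the contrast with other cells was large for each and a factor family, the ETS factors, is known to act at endothelial promoters. *Tie1* and *Flt1* are rule genes, so their contrast is in part set by the rule, and *Robo4* led the ranking against mural cells. Each sequence is 300 bases of RefSeq sequence on GRCm38.p6, from 250 bases before to 50 bases after the start, written 5′ to 3′ on the strand of the gene, and the capitals mark the letters AGGAAG or their reverse complement CTTCCT, which hold the GGAA core recognised by ETS factors such as ERG and FLI1. *Tie1*, which encodes an orphan receptor that modulates TIE2, lies on the minus strand at chr4:118489800-118490099, *Flt1*, which encodes VEGFR1, on the minus strand at chr5:147725962-147726261, and *Robo4*, an endothelial guidance receptor with no UMI in any mural cell, on the plus strand at chr9:37401722-37402021.
Tie1: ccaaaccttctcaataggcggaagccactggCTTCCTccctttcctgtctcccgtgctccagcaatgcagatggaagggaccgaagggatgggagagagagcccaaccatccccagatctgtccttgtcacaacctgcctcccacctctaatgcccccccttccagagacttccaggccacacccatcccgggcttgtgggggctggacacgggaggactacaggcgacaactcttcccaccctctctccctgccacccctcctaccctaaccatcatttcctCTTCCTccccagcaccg
Flt1: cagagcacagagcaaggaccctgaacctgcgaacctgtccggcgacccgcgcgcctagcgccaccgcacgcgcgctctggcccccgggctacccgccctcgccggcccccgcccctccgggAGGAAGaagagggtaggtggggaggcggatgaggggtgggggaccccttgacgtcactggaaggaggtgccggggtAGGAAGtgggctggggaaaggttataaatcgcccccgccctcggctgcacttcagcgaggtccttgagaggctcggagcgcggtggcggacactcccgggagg
Robo4: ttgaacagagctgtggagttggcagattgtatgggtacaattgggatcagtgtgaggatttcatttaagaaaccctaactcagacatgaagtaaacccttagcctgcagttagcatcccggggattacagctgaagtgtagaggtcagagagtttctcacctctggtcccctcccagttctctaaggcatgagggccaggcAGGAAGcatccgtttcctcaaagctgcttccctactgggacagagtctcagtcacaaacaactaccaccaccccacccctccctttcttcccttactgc
The letters were found 2 times in *Tie1*, 2 times in *Flt1* and 1 time in *Robo4*. Among the 26 rule and further endothelial genes described below, 15 had a promoter in the RefSeq table and 11 of them held the letters on either strand (73.3%), against 38.4% of 27025 genes and 35.4% of 32851 promoters. *Kdr*, *Tek*, *Cldn5* and *Shank3* were the searched endothelial genes without the letters, and their promoters are not shown. The match is a description of these windows and says nothing of binding.

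The endothelial share was 5.17% of cells in the control library (4.59 to 5.79%) and 2.79% in the Piezo1 fl/fl library (2.41 to 3.21%). The share in the Piezo1 fl/fl library was 0.540 of the control share, a log2 ratio of -0.89 (-1.16 to -0.62). For each 100 mural cells, called by at least 3 of the 6 mural genes and fewer than 3 endothelial genes, there were 81.8 control and 39.2 Piezo1 fl/fl endothelial cells. For each 100 stromal cells, called by at least 3 of *Prrx1*, *Pdgfra*, *Lum*, *Dpt*, *Col6a3* and *Twist2*, there were 8.30 and 4.85. The control library thus held more endothelial cells on each denominator. With the libraries limited to cells of 1000 to 5000 genes, the control share was 3.86% and the Piezo1 fl/fl share 2.43%, and the log2 ratio was -0.67. The part of the sort and the digestion in these shares was not tested.

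**Figure D1:**
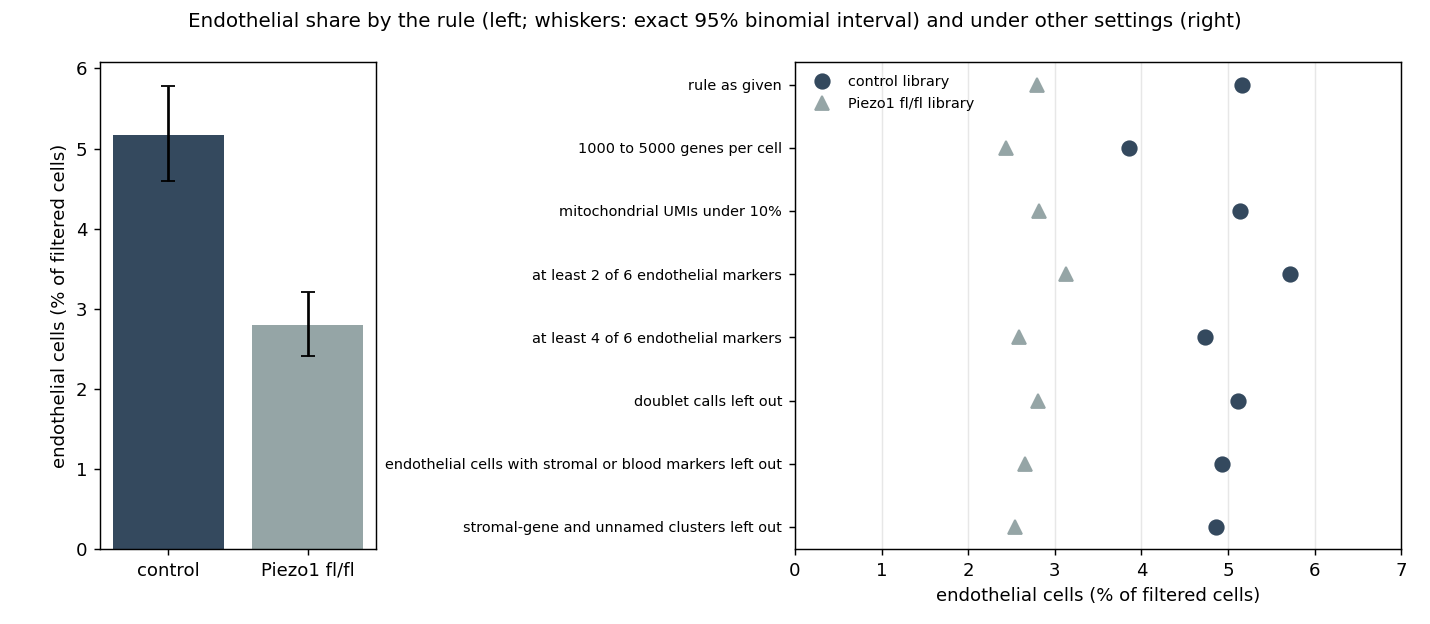
Endothelial share of filtered cells (%) in the control and Piezo1 fl/fl libraries, with exact binomial intervals as whiskers (left), and the same shares under 7 other settings (right). The control share lies between 3.86 and 5.71% and the Piezo1 fl/fl share between 2.43 and 3.13%, with the control share higher in each setting.

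The libraries held 6118 and 7469 barcodes before filtering. The endothelial cells were among the shallower cells, with a median of 2157 UMIs in the control (range 700 to 15757) and 2207 in the Piezo1 fl/fl library (718 to 14136), against 5030.5 and 4826 in stromal cells. Their summed depth was 798542 and 544860 UMIs. Mitochondrial UMIs made up a median of 5.43% and 5.80%, against 12.2% and 11.7% in mural cells. The libraries shared 50 barcode sequences, and no endothelial cell was among them. All 6 endothelial genes were detected in 58.7% of control and 53.7% of Piezo1 fl/fl members. Just inside the threshold, 24 and 14 cells had exactly 3 of the genes, with median depths of 1155.5 and 1131.5 UMIs. Just outside it, 30 and 23 cells had exactly 2 of them, with medians of 3442 and 4832 UMIs, and a further 16 and 25 cells with at least 3 endothelial genes were left out because they also had at least 3 mural genes. Scrublet called 5 and 1 of the members doublets.

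The 6 genes of the rule are given first, as a description, since they chose the cells. Levels are CPM, the UMIs of a gene per 1000000 UMIs, both summed over a class of cells, given for the control and then for the Piezo1 fl/fl library, and are set side by side only for the same gene. *Cdh5* (GRCm38 chr8:104101625-104144511, plus strand), which encodes VE-cadherin of the adherens junction, had 1529 and 1332 CPM in endothelial cells and 2.37 and 0.905 CPM in stromal cells. *Pecam1* (chr11:106654217-106750628, minus strand), which encodes the junction protein CD31, had 2176 and 2296 CPM. *Ptprb* (chr10:116275523-116389535, plus strand), which encodes the phosphatase VE-PTP that acts on TIE2 and VE-cadherin, had 3039 and 2747 CPM. These genes were near 0 in the other classes, where *Pecam1* reached at most 7.71 CPM, in Piezo1 fl/fl blood cells, and *Ptprb* at most 7.39 CPM, in control mural cells. *Flt1* (chr5:147561604-147726011, minus strand) had 2295 and 1887 CPM, *Tie1* (chr4:118471191-118490061, minus strand) 1153 and 1063 CPM and *Adgrl4* (chr3:151437887-151545086, plus strand), an adhesion G protein-coupled receptor, 942 and 690.1 CPM. After each cell was thinned to 1000 UMIs, which left out 37 and 20 endothelial cells, *Cdh5* was detected in 78.0% of control (72.3 to 83.1%) and 72.0% of Piezo1 fl/fl endothelial cells (64.6 to 78.7%), against 0.296% and 0.0522% of stromal cells. Unthinned, the endothelial shares were 90.8% and 92.0%. The coordinates are those of the genes in GENCODE M21, *Cdh5* overlaps the antisense gene *Gm29682*, and *Ptprb* overlaps *Gm47625* and *Gm26495* on its own strand, so that their reads cannot be separated from these tables.

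The endothelial label was then checked on 20 further endothelial genes that the rule did not use. Genes were compared where both classes together held at least 50 UMIs in each library at the depth of the smaller class, and counted as past the fold where both libraries showed at least a 2-fold difference. All 20 were higher than in mural cells and than in stromal cells in both libraries, against 17.1% of 3828 genes for mural and 16.0% of 3822 genes for stromal cells, and 12.4% and 11.3% of genes were lower. These shares are the measure for all list counts against mural and stromal cells below. Over all compared genes the median log2 ratio was 0.20 and 0.21 against mural cells and 0.33 and 0.30 against stromal cells in the control and Piezo1 fl/fl library. The 20 genes had a median log2 ratio of 7.69 and 8.48 against mural and of 8.87 and 9.15 against stromal cells. The endothelial label thus held on genes outside the rule, measured in the same cells. *Kdr*, which encodes the main VEGF receptor VEGFR2, had 1231 and 1011 CPM in endothelial and 1.34 and 0.511 CPM in mural cells. *Podxl*, a sialomucin of the luminal surface, had 774 and 763 CPM, against 0.672 and 1.02 CPM in mural cells. *Erg*, the ETS factor of endothelial identity, had 257 and 262 CPM, against 0 and 1.53 CPM in mural cells, and with 3 UMIs as the floor for the class at 0 it was at least 127-fold higher in the control library. *Esam* and *Cd93* had the smallest gaps to another class. *Esam*, a junction molecule, had 894 and 1011 CPM in endothelial and 237 and 229.8 CPM in mural cells, and *Cd93*, a receptor also found on myeloid cells, had 1136 and 1186 CPM in endothelial and 373 and 231 CPM in blood cells.

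**Figure D2:**
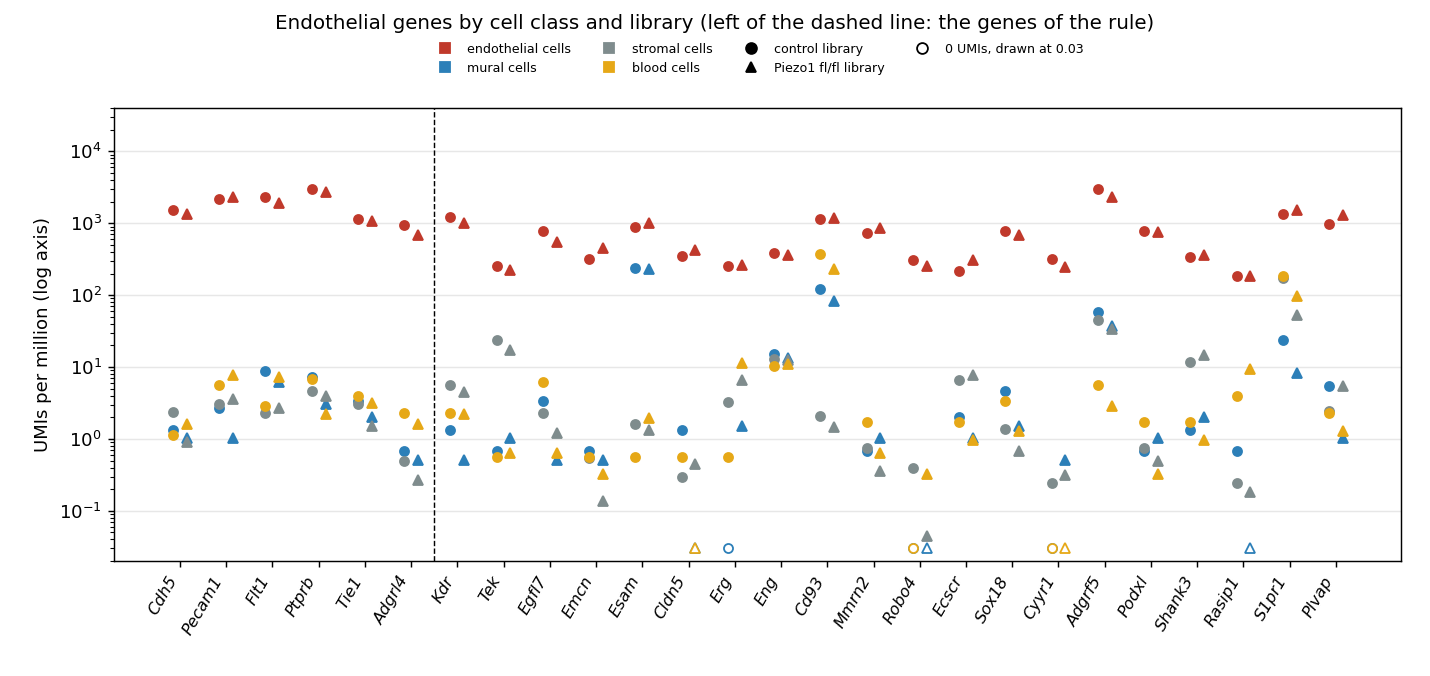
Levels (CPM, log axis) of the 6 rule genes and 20 further endothelial genes in endothelial, mural, stromal and blood cells of each library; open symbols mark classes with 0 UMIs. The endothelial points lie above all other classes for every gene, with *Cd93*, *Esam* and *S1pr1* closest.

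Ranked over all genes with at least 50 UMIs and 100 CPM in the endothelial cells of each library, the 15 genes furthest above mural cells were *Robo4*, *Cdh5*, *Adgrl4*, *Kdr*, *Arhgef15*, *Pecam1*, *Mmrn2*, *Podxl*, *C1qtnf9*, *Gpihbp1*, *Sox17*, *Mcf2l*, *Myct1*, *Ccm2l* and *Ptprb*. *Robo4* had 306 and 255 CPM and no UMI in mural cells, which is at least 152-fold higher in the control and at least 166-fold higher in the Piezo1 fl/fl library. *Arhgef15* also had no mural UMI in either library and was at least 122-fold and 121-fold higher. *C1qtnf9*, which encodes a secreted C1q and TNF related protein, had 599.8 and 431 CPM, against 0.672 and 0.511 CPM. Against stromal cells the 15 leading genes were *Adgrl4*, *Ushbp1*, *Myct1*, *C1qtnf9*, *Podxl*, *Mmrn2*, *Cldn5*, *Gimap4*, *Sox17*, *Adgrg1*, *Cyyr1*, *Robo4*, *Rbp7*, *Flt1* and *Rasip1*. *Rbp7*, a retinol-binding protein of capillary and adipose tissue, had 411 and 226 CPM, against 0.543 and 0.136 CPM in stromal cells. The lists shared *Adgrl4*, *C1qtnf9*, *Mmrn2*, *Myct1*, *Podxl*, *Robo4* and *Sox17*.

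The receptors for VEGF and angiopoietin were a list of 9 genes, of which *Flt1*, *Tie1* and *Ptprb* are genes of the rule and are not counted. All 6 others were past the fold against mural cells and 5 of 6 against stromal cells, the exception being *Nrp2*, a co-receptor that stromal cells also carried (237 and 218 CPM in endothelial and 218 and 129 CPM in stromal cells). *Flt4*, which encodes VEGFR3, had 188 and 239 CPM. *Tek*, which encodes TIE2, had 254 and 222 CPM, against 23.5 and 17.4 CPM in stromal cells. *Nrp1*, a co-receptor of VEGFR2, had 672 and 600.2 CPM, against 60.4 and 50.6 CPM in mural cells. Each of these 6 receptors was higher in endothelial cells than in mural, stromal and blood cells of both libraries, narrowly so for *Nrp2*.

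Of 8 genes for ligands of these receptors, 3 passed the depth minimum against mural cells and none of these was past the fold, and 1 of the 2 that passed against stromal cells, *Vegfc*, was past it. *Vegfa*, the main ligand of VEGFR2, had 18.8 and 62.4 CPM in endothelial, 61.1 and 48.5 CPM in mural and 94.9 and 71.7 CPM in stromal cells. *Angpt1*, the activating ligand of TIE2, had 0 and 3.67 CPM in endothelial cells, the first of which is 0 of 798542 UMIs and allows up to 3.76 CPM, and 37.1 and 36.8 CPM in stromal cells. *Angpt2*, which antagonises ANGPT1 and is stored in endothelial cells, had 75.1 and 25.7 CPM in endothelial and 60.4 and 77.1 CPM in mural cells. *Vegfc*, the ligand of VEGFR3, had 52.6 and 105 CPM in endothelial and 19.3 and 23.3 CPM in stromal cells. The stromal and mural cells thus held more *Angpt1* than the endothelial cells in both libraries, while *Vegfa* was lowest in the endothelial cells of the control library and not in those of the Piezo1 fl/fl library.

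**Figure D3:**
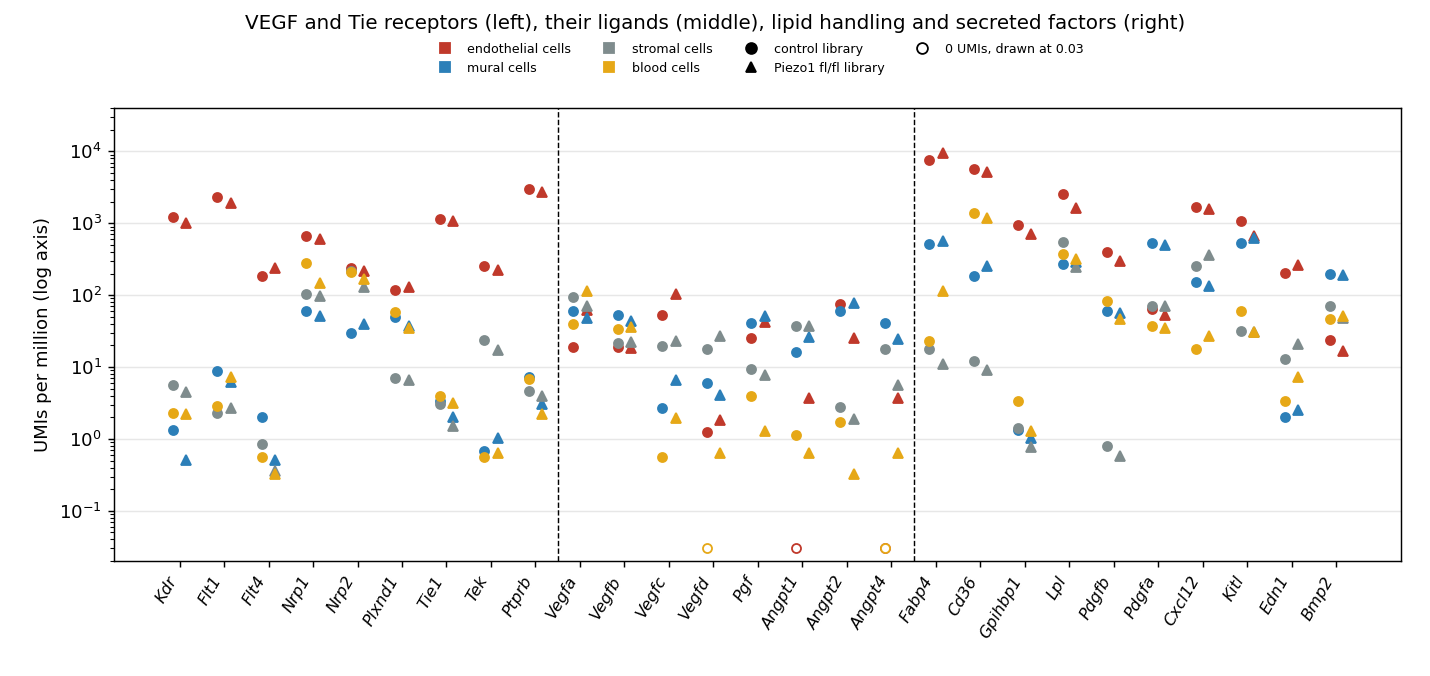
Levels (CPM, log axis) of 9 VEGF and Tie receptor genes, 8 ligand genes and 10 lipid handling or secreted factor genes in 4 classes of cells and both libraries; open symbols mark 0 UMIs. Endothelial points are on top for the receptors, of which *Flt1*, *Tie1* and *Ptprb* are rule genes, and for *Fabp4*, *Cd36*, *Gpihbp1*, *Lpl*, *Pdgfb*, *Cxcl12*, *Kitl* and *Edn1*, and below mural points for *Pdgfa* and *Bmp2*.

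Genes of fatty acid uptake were high in endothelial cells. Of 12 listed genes, 7 passed the depth minimum against mural cells and all 7 were past the fold, and 7 of 8 were past it against stromal cells. The shares over all genes were 17.1% and 16.0%. *Fabp4*, which encodes a fatty acid carrier, had 7481 and 9615 CPM in endothelial, 509.7 and 566 CPM in mural and 17.8 and 11.1 CPM in stromal cells. *Cd36*, the fatty acid translocase, had 5734 and 5238 CPM, against 186 and 254 CPM in mural and 1381 and 1199.6 CPM in blood cells. *Gpihbp1*, which anchors lipoprotein lipase on the capillary wall, had 940.5 and 708 CPM, against 1.43 and 0.769 CPM in stromal cells. *Lpl*, the lipase itself, had 2573 and 1655 CPM in endothelial and 557 and 249.9 CPM in stromal cells. *Scarb1*, a lipoprotein receptor, had 352 and 239 CPM, against 10.1 and 8.17 CPM in mural cells. The remaining gene, *Angptl4*, an inhibitor of the lipase, was not past the fold against stromal cells, with 40.1 and 78.9 CPM in endothelial and 57.1 and 72.5 CPM in stromal cells.

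The water channel *Aqp1* had 5043 and 2889 CPM, against 152 and 103 CPM in mural cells. Of the 12 capillary genes to which it belongs, 10 were past the fold against mural and 11 against stromal cells. *Meox2*, a homeobox factor, was the gene near even in both, with 213 and 152 CPM in endothelial, 189 and 163 CPM in mural and 145 and 141 CPM in stromal cells.

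Of 24 transcription factors, 20 passed the depth minimum, 12 were past the fold above mural cells and 2 below, and 16 were above stromal cells and none below. Over all genes, 17.1% were above and 12.4% below mural cells, and 16.0% above and 11.3% below stromal cells. The 2 factors below mural cells were thus near the share over all genes. *Sox18*, a factor of vessel development, had 789 and 692 CPM, against 4.70 and 1.53 CPM in mural cells. *Epas1*, which encodes HIF2α, had 1826 and 1498 CPM in endothelial and 1154 and 1213 CPM in mural cells, but 20.9 and 14.2 CPM in stromal cells. *Nr2f2* and *Mef2c* were the 2 factors below mural cells. *Nr2f2*, a factor of venous and mesenchymal cells, had 316 and 272 CPM in endothelial and 850.2 and 679 CPM in mural cells, and *Mef2c* 227 and 218 CPM and 579 and 576 CPM.

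Of 9 Notch genes outside the rule that passed the depth minimum, 5 were past the fold above mural cells and 3, *Hes1*, *Hey2* and *Heyl*, below. Over all genes the shares were 17.1% above and 12.4% below. *Notch4* had 213 and 193 CPM in endothelial and 1.34 and 3.58 CPM in mural cells, and the ligand *Dll4* had 157 and 149 CPM in endothelial cells and 0.672 and 0 CPM in mural cells. *Notch3* is 1 of the mural genes of the rule and is not counted. The Notch target *Heyl* had 118 and 100.1 CPM in mural and 2.50 and 1.84 CPM in endothelial cells, and the target *Hey1* 147 and 119 CPM in endothelial and 24.8 and 13.8 CPM in mural cells.

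Among 20 genes of secreted or signalling factors, 6 were past the fold above mural cells and 3 below among 13 that passed the minimum, and 7 were above stromal cells and 1 below among 11. The shares over all genes were 17.1% above and 12.4% below mural cells, and 16.0% above and 11.3% below stromal cells. *Pdgfb*, which recruits pericytes to the vessel, had 404 and 303 CPM in endothelial, 61.1 and 56.7 CPM in mural and 0.790 and 0.588 CPM in stromal cells. *Pdgfa* had the other order, with 63.9 and 53.2 CPM in endothelial and 537 and 497 CPM in mural cells. *Cxcl12*, the chemokine that retains blood-forming cells, had 1673 and 1593 CPM, against 253 and 359 CPM in stromal cells. *Kitl*, which encodes stem cell factor, had 1067 and 675 CPM in endothelial and 529 and 629 CPM in mural cells. *Bmp2*, an osteogenic factor, stood below mural cells, with 23.8 and 16.5 CPM in endothelial and 194 and 190.0 CPM in mural cells, and *Igf1* had 98.9 and 182 CPM in endothelial and 1001 and 1275 CPM in stromal cells.

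Of the genes of caveolae and vessel tone, 7 of 11 were past the fold above mural and 8 above stromal cells, against 17.1% and 16.0% of all genes. *Cavin2* had 2603 and 2272 CPM, against 21.5 and 28.6 CPM in mural cells, while *Cavin1* was near even, with 2224 and 2046 CPM in endothelial and 2209 and 2144 CPM in mural cells. *Edn1*, which encodes the vasoconstrictor endothelin 1, had 202 and 261 CPM, against 13.1 and 20.8 CPM in stromal cells. *Nos3*, which encodes endothelial nitric oxide synthase, was low, with 48.8 and 66.1 CPM, and below the depth minimum.

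The endothelial cells stood above mural cells in class I antigen presentation and interferon response genes, with 5 of 8 and 5 of 5 past the fold, and above stromal cells with 5 of 5 and 6 of 6. The 3 antigen presentation genes that were not past the fold against mural cells were the class II genes *H2-Aa*, *H2-Ab1* and *Cd74*. *H2-K1* had 1365 and 1375 CPM in endothelial, 144 and 141 CPM in mural and 196 and 257 CPM in stromal cells, a level near that of blood cells with 1258 and 1211 CPM. *Ly6e* had 2502 and 2832 CPM, against 36.3 and 57.7 CPM in mural cells. The dissociation response stood the other way. Of its 11 genes, 5 were past the fold below mural cells and 3 below stromal cells, and none was above. Over all genes, 12.4% were below and 17.1% above mural cells, and 11.3% below and 16.0% above stromal cells. *Nr4a1* had 133 and 114 CPM in endothelial and 2686 and 3211 CPM in mural cells, and *Fos* 2163 and 2522 CPM and 7805 and 9915 CPM.

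Of the junction genes outside the rule, which used *Cdh5* and *Pecam1*, 8 of 11 were past the fold above mural cells and 3 below. Over all genes, 17.1% were above and 12.4% below mural cells, and 16.0% were above stromal cells. *Cldn5*, the main claudin of the endothelial tight junction, had 348 and 420.3 CPM, against 0.296 and 0.452 CPM in stromal cells. The connexin genes *Gja4* and *Gjc1* were 2 of the genes below, *Gja4* with 40.1 and 33.0 CPM in endothelial and 156 and 144 CPM in mural cells. Of the leukocyte adhesion genes, 5 of 6 were above mural cells and 3 of 5 above stromal cells, and *Icam2*, a ligand of leukocyte integrins, had 80.1 and 103 CPM, against 0 and 0 CPM in mural cells.

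In haemostasis, *Vwf* and *Thbd* were past the fold against mural cells and the other 5 genes were not, where 17.1% of all genes were above mural cells. *Thbd*, which encodes thrombomodulin, had 432 and 426 CPM, against 32.2 and 24.0 CPM in mural cells. The BMP and TGFβ genes were past the fold above mural cells in 6 of 11 and below in 1 of 11, the latter near the 12.4% of all genes. *Acvrl1*, the endothelial BMP9 receptor ALK1, had 190.3 and 213 CPM, against 7.39 and 10.7 CPM in mural cells, and its target *Id1* 287 and 325 CPM, against 129.6 and 126 CPM. *Bmpr1a*, another type I receptor, was the gene below, with 22.5 and 20.2 CPM and 243 and 273 CPM.

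In basement membrane, 7 of 13 genes were past the fold above mural cells and none below, and 5 were above stromal cells and 1 below. The shares over all genes were 17.1% above and 12.4% below mural cells, and 16.0% above and 11.3% below stromal cells. *Col4a1*, which encodes a chain of type IV collagen, had 2347 and 2366 CPM in endothelial, 1105 and 1090.0 CPM in mural and 572 and 812 CPM in stromal cells. *Sparc* was the gene below stromal cells, with 7740.4 and 9257 CPM, against 26939.9 and 22453 CPM.

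Markers of other cells were then read in the same endothelial cells. The 6 mural genes of the rule, which were limited by it, lay between 0 and 12.5 CPM in control and between 3.67 and 29.4 CPM in Piezo1 fl/fl endothelial cells. Of 9 further mural genes, *Rgs5* had 352 and 305 CPM and *Acta2* 72.6 and 119 CPM in endothelial cells, against 4387 and 4074 CPM and 16714 and 17878 CPM in mural cells, and *Pdgfrb* had 11.3 and 0 CPM in endothelial cells. Of the 7 further mural genes that passed the depth minimum, 6 were past the fold below mural cells. The 6 blood genes lay between 0 and 18.8 CPM in the control and between 0 and 58.7 CPM in the Piezo1 fl/fl library, with *Coro1a* at 0 in both, *Cytip* at 0 and 1.84 CPM and *Ptprc* at 10.0 and 31.2 CPM. At least 3 of them were found in 1 and 2 endothelial cells. Schwann cell and skeletal muscle genes reached at most 12.5 CPM. Stromal RNA was more common, since 12 control and 7 Piezo1 fl/fl members had at least 3 of the 6 stromal genes, and *Prrx1* itself, the gene after which the driver is named, had 80.1 and 84.4 CPM in endothelial and 925 and 746 CPM in stromal cells. Its part in the results was not tested, and its place among the clusters is given below.

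The endothelial cells of each library were next clustered apart. A random share of 0.5 of each cell's UMIs made the clusters. The levels by cluster come from the other, held-out UMIs of the same cells. Clusters were named from arterial, capillary, venous, lymphatic and sinusoidal marker lists. No vessel name was given where another of these lists, or the stromal, blood or mural genes, had as many markers among the top 10 genes. The clusters and their levels are descriptions. The same lists named the clusters, so the counts of their genes below describe the clusters and do not check the names. In the control, 33 cells were arterial-like (11.7%, 8.16 to 16.0%), 143 capillary-like (50.5%, 44.5 to 56.5%), 71 venous-like (25.1%, 20.1 to 30.6%) and 19 lymphatic-like (6.71%, 4.09 to 10.3%). In the Piezo1 fl/fl library, 69 cells were arterial-like (36.7%, 29.8 to 44.0%), 59 capillary-like (31.4%, 24.8 to 38.5%), 34 venous-like (18.1%, 12.9 to 24.3%) and 9 lymphatic-like (4.79%, 2.21 to 8.89%). The clusters were made within each library and the border between arterial-like and capillary-like cells moved with the settings, so their sizes were not compared. With another random split, the Piezo1 fl/fl library had 18.1% arterial-like and 50.5% capillary-like cells. The other cells were 17 control and 11 Piezo1 fl/fl cells of a cluster led by stromal genes and 6 Piezo1 fl/fl cells of a cluster that stayed unnamed.

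Of 12 tested arterial genes, 8 were past 2-fold above the other endothelial cells in the arterial-like cells of both libraries, against 3.86% of the 2124 genes with at least 10 held-out UMIs at the depth of the cluster, with 2.87% below. *Gja5*, the arterial connexin 40, had 364 and 188 CPM in arterial-like cells and no UMI in venous-like cells. *Sema3g*, a secreted semaphorin, had 2567 and 1589 CPM in arterial-like and 157 and 80.1 CPM in capillary-like cells. *Fbln5*, an elastic fibre protein, had 2312 and 1400.5 CPM in arterial-like and 184 and 48.0 CPM in capillary-like cells. The other arterial genes past the fold were *Sox17*, *Hey1*, *Dll4*, *Jag1* and *Vegfc*. Of the 7 tested Notch genes, the ligands *Dll4*, *Jag1* and *Jag2* and the target *Hey1* were past the fold, and *Jag1* had 400.5 and 271 CPM in arterial-like and 85.8 and 17.5 CPM in venous-like cells. The secreted factors *Edn1* and *Pdgfd* were also higher there, with 619 and 412 CPM and 364 and 365 CPM. *Trpv4*, a calcium channel of the endothelium, had 200.2 and 141 CPM in arterial-like and 19.7 and 16.0 CPM in capillary-like cells, and *Heg1*, a junction protein of flow sensing, 1074 and 800.3 CPM and 525 and 368 CPM.

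In capillary-like cells, 9 of 12 capillary genes were past the fold in both libraries, against 3.19% of 2447 genes above and 4.86% below. *Lpl* had 5351 and 4916 CPM in capillary-like, 1019 and 1036 CPM in arterial-like and 592 and 175 CPM in venous-like cells. *Cd36* had 9409.9 and 11273 CPM, 6954 and 5567 CPM and 2599 and 2484 CPM in the same order, and *Timp4*, a metalloproteinase inhibitor, 3554 and 2530.1 CPM, 1183 and 977 CPM and 335 and 87.5 CPM. *Fabp4* did not separate them, with 10203 and 16909.8 CPM in capillary-like and 11305 and 8721 CPM in arterial-like cells. *Kitl* and *Cxcl12*, the latter a gene of the arterial list, were past the fold above the other endothelial cells. *Kitl* had 1521 and 1185 CPM in capillary-like, 1748 and 753 CPM in arterial-like and 532 and 402 CPM in venous-like cells, and *Cxcl12* 2609.8 and 3010.5 CPM, 1147 and 1918 CPM and 1681 and 717 CPM. *Kdr* and *Nrp1* were likewise higher, *Kdr* with 1875 and 1906 CPM in capillary-like and 492 and 836 CPM in arterial-like cells. The control cluster also carried the class II genes *H2-Aa* and *H2-Eb1*, the blood gene *Lyz2* and the macrophage gene *C1qc* among its leading genes. *H2-Aa* had 164 CPM and *C1qc* 190.2 CPM. Such RNA was uneven over the cluster, where 1 cell of 12157 UMIs held 34 of the 49 control *C1qb* UMIs. The same cell held 56 of the 92 control *Cd74* UMIs.

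In venous-like cells, 4 of 10 venous genes were past the fold in both libraries, against 2.38% of 2229 genes above and 3.36% below. *Ackr1*, the chemokine receptor of venules, had 206 and 332 CPM in venous-like and 6.56 and 16.0 CPM in capillary-like cells. *Selp*, which encodes P-selectin for leukocyte rolling, had 129 and 157 CPM in venous-like cells and no UMI in arterial-like and capillary-like cells. *Vwf* had 360.3 and 805 CPM and *Lrg1* 703 and 1364 CPM. *Plvap*, the diaphragm protein of fenestrae, had 2959.6 and 3271 CPM in venous-like and 54.6 and 506 CPM in arterial-like cells. *Apln*, a gene of sprouting endothelium, was past the fold too, with 438 and 262 CPM in venous-like and 0 and 70.6 CPM in arterial-like cells.

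In lymphatic-like cells all 6 tested lymphatic genes were past the fold in both libraries, against 9.98% of 421 genes above and 11.9% below. *Lyve1*, a hyaluronan receptor, had 5638 and 4086 CPM in lymphatic-like cells and 8.58 CPM at most in any other named cluster. *Mmrn1* had 6905 and 4243 CPM in lymphatic-like cells and 0 in the arterial-like, capillary-like and venous-like cells of both libraries. *Prox1*, which did not reach the depth minimum in the Piezo1 fl/fl library, had 2407 and 550.0 CPM. *Flt4* had 1362 and 786 CPM in lymphatic-like and 138 and 224 CPM in capillary-like cells. The lymphatic-like cells were low in 3 of the 6 rule genes. *Flt1* had 0 in both libraries there, *Ptprb* 538 and 550.0 CPM and *Adgrl4* 95.02 and 236 CPM, against 3619.7 and 2834 CPM and 1325 and 1025 CPM in capillary-like cells, while *Tie1* had 1774 and 1179 CPM and 1443 and 1233 CPM. The lymphatic-like cells thus met the rule with lower levels of *Flt1*, *Ptprb* and *Adgrl4*. All 4 tested lipid genes, *Fabp4*, *Cd36*, *Gpihbp1* and *Lpl*, were past the fold below, *Fabp4* with 95.02 and 157 CPM.

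**Figure D4:**
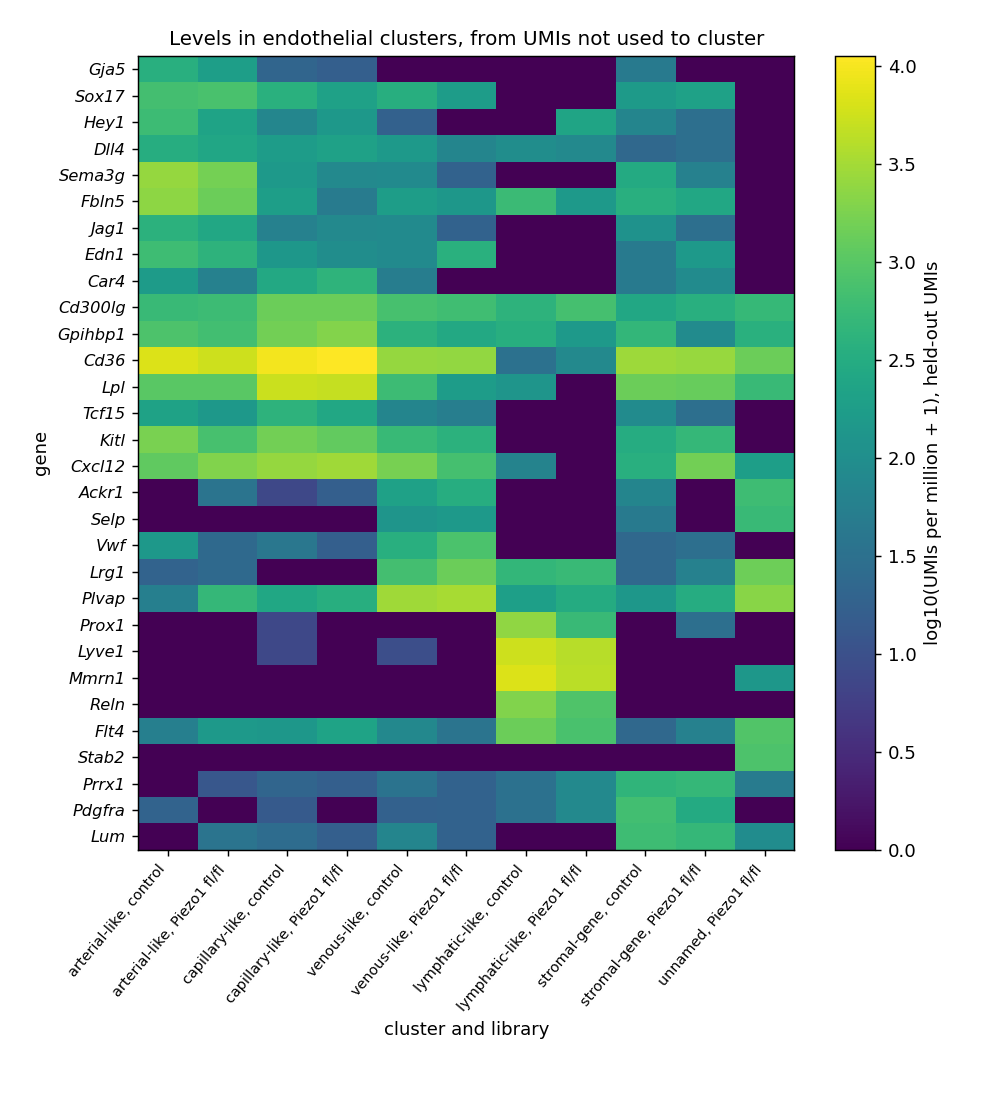
Levels of 30 genes, as log10 of held-out CPM plus 1 (colour), in the clusters of endothelial cells of each library. Arterial genes other than *Cxcl12* are highest in the arterial-like columns, *Lpl* and *Car4* in the capillary-like, *Vwf* in the venous-like and *Mmrn1* in the lymphatic-like columns, and *Prrx1*, *Pdgfra* and *Lum* in the stromal-gene columns. *Cxcl12*, also on the arterial list, is higher in the capillary-like than in the arterial-like column of each library.

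The stromal-gene cluster held 17 control cells (6.01%) with a median of 3896 UMIs and 11 Piezo1 fl/fl cells (5.85%) with a median of 6203 UMIs, above the medians of all endothelial cells. It contained 11 of the 12 control and 6 of the 7 Piezo1 fl/fl members with at least 3 stromal genes, and 4 and 1 doublet calls. In it, *Col1a1* reached 49.5% and 96.1% of its level in stromal cells, and *Prrx1* 61.4% and 68.5%. In the other 266 and 177 endothelial cells *Col1a1* was at 2.64% and 2.24% and *Prrx1* at 2.13% and 3.09% of the stromal level, with 19.7 and 23.1 CPM. Over 12 stromal genes, the range in these other cells was 1.59 to 6.28% in the control and 1.75 to 6.14% in the Piezo1 fl/fl library. In the stromal-gene cluster the range was 41.2 to 143% and 31.2 to 360%, with *Angptl7* the highest in both libraries. Of the *Prrx1* UMIs of all members, 50 of 64 in the control and 35 of 46 in the Piezo1 fl/fl library lay in this cluster. *Cdkn1c*, a cell cycle inhibitor that was named after its values were seen, did not follow the pattern, since the same other cells had 208 and 143 CPM, at 102% and 92.5% of the stromal level.

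The unnamed cluster of 6 Piezo1 fl/fl cells (3.19%, 1.18 to 6.82%) had a median of 6754 UMIs. It was led by *Slc40a1*, *C1qb*, *Ctss*, *C1qc*, *Dnase1l3*, *Hmox1*, *Stab2* and *Fcna*, in which *Stab2* and *Dnase1l3* are sinusoidal endothelial genes and *C1qb* and *C1qc* macrophage genes. With 2 sinusoidal and 2 blood markers among its top 10 genes, it was given no name. The blood markers were *C1qb* and *C1qc*, and *C1qc* was made a marker after the clusters had been seen, so the tie rests on that choice. The genes were not shared evenly by its cells. A single cell held 84 of the 92 *C1qb* UMIs of Piezo1 fl/fl endothelial cells and 1 *Stab2* UMI. Another held 9 *Stab2* UMIs and a further one 8, each with 0 *C1qb* UMIs. *Stab2* had 846 CPM of held-out UMIs there and 0 in every other cluster. In all endothelial cells *Stab2* had 0 and 75.2 CPM and *Dnase1l3* 0 and 91.8 CPM, so that neither had a UMI in the control.

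Cycling cells were few. At least 1 UMI of *Mki67*, *Top2a*, *Cdk1*, *Cdc20*, *Ccnb1* or *Birc5* was found in 12 of 283 control (4.24%, 2.21 to 7.29%) and 10 of 188 Piezo1 fl/fl endothelial cells (5.32%, 2.58 to 9.56%). At least 2 of these genes were found in 3 and 1 cells. Of 132 control UMIs of these genes, 125 lay in the venous-like cluster, 61 of them in 1 cell. At 1000 UMIs per cell the shares were 2.44% and 1.79%.

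The comparison of Piezo1 fl/fl with control endothelial cells asks how the vessels differ in mice that carry floxed *Piezo1* beside Prx1 Cre. The gene encodes a mechanically gated cation channel. *Piezo1* (chr8:122481698-122551329, minus strand) had 19 UMIs or 23.8 CPM (14.3 to 37.2) in control and 9 UMIs or 16.5 CPM (7.55 to 31.4) in Piezo1 fl/fl endothelial cells, and the intervals overlapped. Stromal cells had 4.59 and 1.95 CPM. Which exons were floxed is not given in the sources used here, the reads come from the 3′ end, and the gene overlaps *Ctu2* and *Gm20388* on the other strand and *Gm26497* on its own, so these values do not check the deletion. The red reporter is not among the features. Among 20 genes of flow and mechanical sensing, 14 passed the depth minimum and none was past 2-fold between the libraries. Over all genes the shares were also low, 1.38% higher and 1.45% lower. *Klf2*, a factor induced by laminar flow, had 720.1 and 591 CPM, *Klf4* 816 and 800.2 CPM and *Heg1* 499.7 and 508 CPM.

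Of 3999 genes compared between the libraries' endothelial cells, 55 were at least 2-fold higher in Piezo1 fl/fl (1.38%) and 58 at least 2-fold lower (1.45%), with a median log2 ratio of -0.02. The 20 further endothelial genes, the 12 capillary genes and the 6 VEGF and Tie receptors outside the rule held none past the fold. With so low a share over all genes, none among so few genes says little. The 6 rule genes also held none, but the rule chose the cells of both libraries by them. The 12 capillary genes had a median log2 ratio of -0.30. Of these, *Fabp4* had 7481 and 9615 CPM, a log2 ratio of 0.36 (0.31 to 0.42), and *Aqp1* 5043 and 2889 CPM, a log2 ratio of -0.80 (-0.89 to -0.72). Among the lymphatic genes, 4 of 7 were past the fold on the lower side. *Prox1* had 187 and 27.5 CPM, *Mmrn1* 595 and 213 CPM, *Reln* 143 and 44.0 CPM and *Lyve1* 456 and 213 CPM, over 19 control and 9 Piezo1 fl/fl lymphatic-like cells, and a share of these levels lay in few cells, since 1 control cell held 58 of the 149 *Prox1* UMIs and 1 held 162 of the 364 *Lyve1* UMIs. With each gene's highest cell of both libraries left out, the log2 ratio went from -2.72 to -2.58 for *Prox1*. It went from -1.48 to -1.53 for *Mmrn1* and from -1.67 to -1.89 for *Reln*. The summed counts alone do not tell fewer cells of a type from less RNA per cell. Within the lymphatic-like cells, the held-out levels of *Prox1*, *Mmrn1* and *Lyve1* given above were also lower in the Piezo1 fl/fl library. The part of each was not tested.

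The 10 genes with the highest ratio in Piezo1 fl/fl cells were *Fcna*, *Slc40a1*, *Cxcl2*, *Penk*, *Hmox1*, *Tfpi*, *Abcc9*, *Vcam1*, *Mrc1* and *Apod*. Several had most UMIs in 1 cell. A cell of the unnamed cluster with 14136 UMIs and 84 *C1qb* UMIs held 62 of 64 *Fcna*, 78 of 79 *Slc40a1* and 156 of 171 *Hmox1* UMIs, and it was also the top cell for *Vcam1* and *Mrc1*. With each gene's highest cell of both libraries left out, *Hmox1*, which encodes heme oxygenase 1, went from a log2 ratio of 3.09 to -0.21. *Cxcl2*, a neutrophil chemokine, had 9 UMIs in 9 control cells and 92 in 28 Piezo1 fl/fl cells (11.3 and 169 CPM), and a log2 ratio of 2.54 without the highest cells, of which the Piezo1 fl/fl one held 59 UMIs. *Cxcl2* was also high in blood cells, with 4051 and 7572 CPM. *Tfpi*, an inhibitor of coagulation, had 36.3 and 275 CPM, but 29.3 and 41.6 CPM among arterial-like, capillary-like and venous-like cells alone. *Penk*, which encodes proenkephalin, and *Apod*, which encodes apolipoprotein D, had their top cell in the stromal-gene cluster, and stromal cells had 303 and 342 CPM and 1197 and 1108 CPM. The same cell was on top for both, was called a doublet and held 22 of 62 *Penk* and 60 of 111 *Apod* UMIs. Without the highest cells the log2 ratios went from 3.43 to 3.46 and from 1.84 to 0.99.

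The 10 genes with the lowest ratio were *Myoc*, *Prox1*, *Cd74*, *Tnfaip6*, *Reln*, *Rnd1*, *Cxcl1*, *Mmrn1*, *Fibin* and *Ibsp*. *Prox1*, *Reln*, *Mmrn1* and *Fibin* had their top control cell in the lymphatic-like cluster and *Myoc*, *Tnfaip6*, *Cxcl1* and *Ibsp* in the stromal-gene cluster. *Ibsp*, a bone matrix gene, had 119 of 146 control UMIs in 1 cell, and its log2 ratio went from -1.34 to 0.62 without the highest cells. *Rnd1* was spread over 32 control and 15 Piezo1 fl/fl cells, with 101 and 31.2 CPM, a log2 ratio of -1.67 (-2.55 to -0.93), and 68 of its 81 control UMIs lay in the venous-like cluster. *Cd74*, the class II invariant chain, had 56 of 92 control UMIs in 1 capillary-like cell.

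Of the 55 higher genes, 42 kept a 2-fold ratio without the highest cells, as did 44 of the 58 lower genes, with no depth minimum set on the UMIs that were left. With the minimum of 50 UMIs set again on those UMIs, 27 genes were higher and 52 lower. Among arterial-like, capillary-like and venous-like cells alone, 247 control and 162 Piezo1 fl/fl cells, 29 of 3083 genes were at least 2-fold higher (0.941%) and 28 at least 2-fold lower (0.908%). Among the listed genes, *Pparg*, the fatty acid sensor, had 87.7 and 195 CPM in 46 and 53 cells, with a log2 ratio of 1.15 (0.70 to 1.61) in all endothelial cells and of 0.84 (0.32 to 1.37) in these cells. *Bmp6* had 96.4 and 36.7 CPM in 58 and 19 cells, with a log2 ratio of -1.37 (-2.18 to -0.67), and of -1.25 (-2.09 to -0.53) in these cells. *Atf3*, a stress-response factor, had 293 and 119 CPM, with a log2 ratio of -1.29 (-1.72 to -0.89), and of -1.89 (-2.46 to -1.39) in these cells. It was the only gene past the fold among the 11 of the dissociation list, where 1.45% of all genes were lower. The median log2 ratio of that list was 0.01 in all endothelial cells. *Mgp*, which encodes matrix Gla protein and was named after its values were seen, had 662 and 1843 CPM in 99 and 109 cells, a log2 ratio of 1.48 (1.32 to 1.63), and it was higher in the stromal cells of the same library as well, with 2540.4 and 5740.0 CPM. The part of stromal RNA in the *Mgp* values was not tested.

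**Figure D5:**
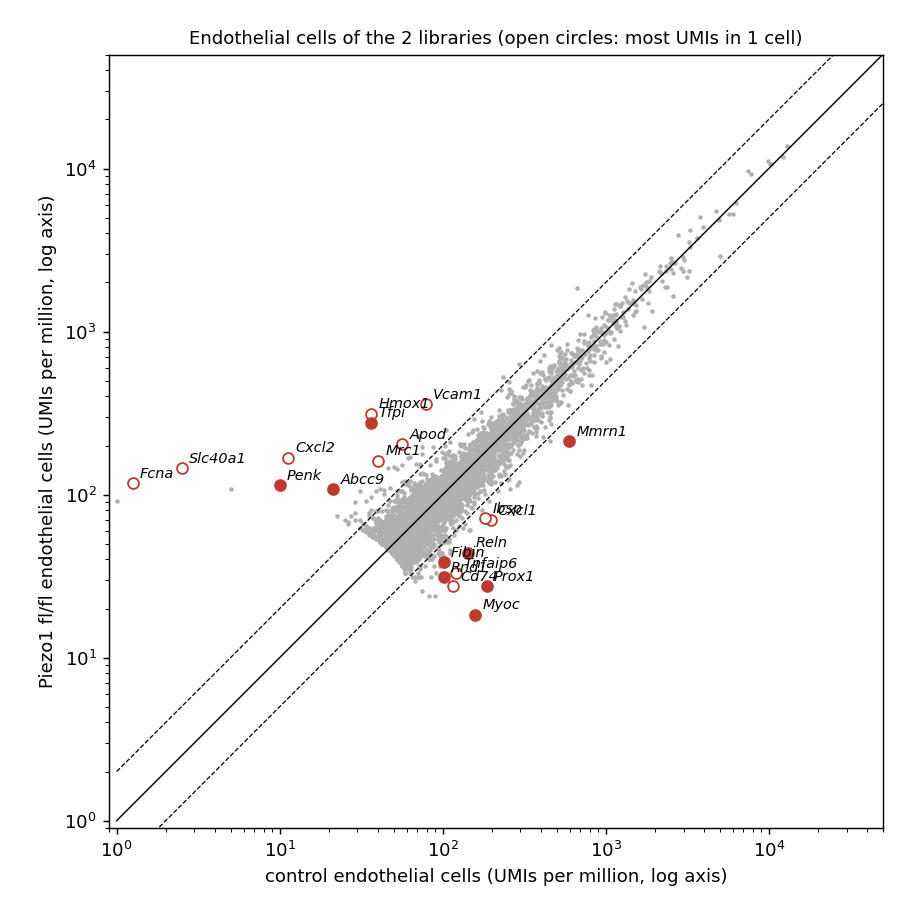
Level of each compared gene (CPM, log axes) in control (x) and Piezo1 fl/fl (y) endothelial cells, with the line of equality, dashed lines at 2-fold and the 20 named genes as circles; open circles mark genes with at least 0.5 of their UMIs of the higher library in 1 cell. Most genes lie within the dashed lines, and 11 of the 20 circles are open.

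Blood genes were read beside these values. Of the further blood genes, *C1qb* had 61.4 and 169 CPM and *Fcer1g* 52.6 and 143 CPM, both past the fold. A single Piezo1 fl/fl cell held 84 of the 92 *C1qb* and 66 of the 78 *Fcer1g* UMIs. Without the highest cells their log2 ratios went from 1.45 to -0.30 and from 1.44 to -0.15, and among arterial-like, capillary-like and venous-like cells, where neither gene met the depth minimum, they were -2.20 and -1.28. *Lyz2* had 172 and 125 CPM. *Hbb-bs*, a hemoglobin gene, had 5.01 and 108 CPM in endothelial cells, with 43 of its 59 Piezo1 fl/fl UMIs in 1 cell. Blood cells made up 8.34% of the control and 13.7% of the Piezo1 fl/fl library. Their part in the differences between the libraries was not tested.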

How the data were processed

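Single cells of mouse periosteum were captured on the BD Rhapsody whole-transcriptome platform, with 1 library per genotype. The authors deposited, for each library, a sparse matrix that gives the UMI count of each gene in each barcode, in whole numbers without normalization. The submitters' processing notes name fastp, UMI-tools, STAR and Seurat 4.0.3, without their roles. The genome build, the annotation and the strand setting are not given in the sources used here.

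Counts were read with Python 3.11.15 and scipy 1.17.1. Barcodes were kept if 500 to 5000 genes were detected and fewer than 25% of UMIs were mitochondrial. UMIs were summed over the cells of a class and library, and scaled to CPM. Ratios have 0.5 UMIs added to both counts, and their intervals are exact conditional intervals. A gene was compared with at least 50 UMIs, and called at a 2-fold ratio. Genes at 0 in a class have a floor of 3 UMIs over the class. With 1 library per genotype there was no test and no p-value. Shares of cells with a UMI were taken at 1000 UMIs per cell. Endothelial cells were clustered with scanpy 1.11.5 (1000 variable genes, 15 components, Leiden resolution 0.5). A cluster was named where its markers led its top 10 genes, with at least 3 of them detected in at least 10% of its cells. These cut-offs, and *C1qc* as a blood marker, were set after the clusters had been seen. Doublets were called with Scrublet (expected rate 0.05) and kept, and left out as an alternative. The steps were tested on simulated data.

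Named genes were those of 35 lists, the 15 with the largest ratio to another class and the 10 with the largest ratio in each direction between libraries, with at least 50 UMIs and 100 CPM. Mitochondrial, ribosomal, hemoglobin and sex-linked genes were left out of these rankings. The members and lists were chosen with earlier results of these data known. Coordinates are from GENCODE M21 (GRCm38), in which 31107 of 31253 feature identifiers were found, and promoters from RefSeq. Results were recomputed under 15 other settings and under 3 more that were chosen after the data had been seen.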

Additional observations from a re-analysis of the deposited data

Results flagged for a closer look

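The following genes are given because the endothelial cells stood on opposite sides of another class in the 2 libraries, with the interval of each ratio away from 0. The difference between the libraries was not tested, and each library is 1 sample. Values are log2 ratios for the control and then the Piezo1 fl/fl library.

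Against mural cells, *Col1a1*, *Col1a2* and *Col3a1*, which encode fibrillar collagens, were at -0.48 and 1.24, -0.65 and 0.95, and -0.28 and 0.30. Outside the stromal-gene cluster the other endothelial cells had 1279 and 808 CPM of *Col1a1*, 953 and 697 of *Col1a2* and 781 and 609 of *Col3a1*, below the 5275 and 2141, 4376 and 2016, and 2587 and 1904 CPM of mural cells in both libraries. *Abcc9*, a potassium channel subunit known from pericytes, was at -1.80 and 1.06. In arterial-like, capillary-like and venous-like cells alone it had 21.6 and 14.7 CPM, below the 75.9 and 52.1 CPM of mural cells in both libraries. *Ccn2*, a matricellular gene, was at -0.66 and 0.31. *H2-Ab1*, a class II antigen presentation gene, was at 0.72 and -1.51.

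Against stromal cells, *Acta2*, which encodes smooth muscle actin, was at -0.58 and 1.20. *Adm*, which encodes adrenomedullin, was at 0.74 and -0.54. *Hspa1b*, a heat shock gene of the dissociation list, was at 0.18 and -0.44.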

How the results depend on the processing

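No paired analysis was possible because each genotype was 1 library. The endothelial share stayed lower in the Piezo1 fl/fl library in each setting, and the control share was 3.86% with 1000 to 5000 genes per cell. With a minimum of 20 UMIs, more genes were compared and 1150 were higher and 725 lower than in mural cells, 1039 higher and 732 lower than in stromal cells, and 197 higher and 202 lower in Piezo1 fl/fl. With a minimum of 100 UMIs, fewer were compared and 382 were higher than in mural cells, 341 higher and 278 lower than in stromal cells, and 22 higher and 18 lower in Piezo1 fl/fl. At least 2 of 6 markers gave 109 genes higher in Piezo1 fl/fl, and leaving out each gene's highest cell, chosen after the data had been seen, gave 27. Arterial-like, capillary-like and venous-like cells alone, fewer cells with fewer genes compared, gave 29 higher and 28 lower.

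The cluster shares moved with the settings. Arterial-like cells made up 71.3% of Piezo1 fl/fl endothelial cells at resolution 0.3 and 18.6% at resolution 0.8, and capillary-like cells 30.0% of control cells at resolution 0.8. A second random split gave 17.0% arterial-like and 41.0% capillary-like cells in the control, and 18.1% and 50.5% in the Piezo1 fl/fl library. Without thinning, a UMI of the cell cycle list was found in 5.32% of Piezo1 fl/fl cells, *Piezo1* in 6.01% of control cells and *Prrx1* in 9.19% and 10.1% of control and Piezo1 fl/fl cells. At 2000 UMIs per cell *Prrx1* was found in 10.4% and 9.80%.

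Log2 ratios of Piezo1 fl/fl to control changed sign for 9 genes. Without cells that carried stromal or blood markers they were -0.24 for *Hmox1*, 0.35 for *Tnfaip6*, 0.74 for *Ibsp*, -0.39 for *Thbs4*, -0.58 for *C1qb* and -0.30 for *Fcer1g*. Among arterial-like, capillary-like and venous-like cells they were -0.92 for *Hmox1*, -0.49 for *Abcc9*, -0.40 for *Vcam1*, -1.66 for *Mrc1*, 0.94 for *Tnfaip6*, 0.75 for *Ibsp*, -2.20 for *C1qb* and -1.28 for *Fcer1g*. Of these only *Vcam1* met the minimum of 50 UMIs there. *Reln*, *Lyve1* and *Fibin* had 0, 2 and 0 control and 0, 2 and 2 Piezo1 fl/fl UMIs in those cells, and no ratio was formed where both groups held 3 UMIs or fewer. Without each gene's highest cell they were -0.21 for *Hmox1*, 0.62 for *Ibsp*, -0.30 for *C1qb* and -0.15 for *Fcer1g*, and *Ibsp* was at 1.09 with at least 4 of 6 markers. The cause was not tested.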

Other observations

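Erythroid genes were low in the endothelial cells of the control library, with *Hba-a1* at 0 CPM and *Hba-a2* at 1.25 CPM, and were at 60.6 and 56.9 CPM in those of the Piezo1 fl/fl library. *Maf*, a factor on the sinusoidal list, had 200.4 and 182 CPM and *Gpr182*, an atypical chemokine receptor of sinusoidal and lymphatic endothelium, 30.05 and 58.7 CPM in the endothelial cells of the control and Piezo1 fl/fl libraries.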
